A study of Mus musculus with 12 samples.

Results

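The genes described here are 50 mouse genes of ribosome biogenesis and of RNA polymerase I, picked from the count table by gene symbol. All 50 were found among the 55487 Ensembl genes of the table, all 50 are protein-coding, and all 50 were among the 11314 protein-coding genes with enough counts to be tested. Their RNA was measured by strand-specific sequencing of polyadenylated RNA in primary mesenchymal stromal cells (MSCs) from the bone marrow of wild-type C57BL/6 mice, with 4 samples in each of 3 groups. Control MSCs (the group labelled Negative) were untreated. A1 MSCs received 50 μM A1, a conjugate of cholic acid and a nuclear localization signal from hnRNPA1, and A1-OVA MSCs received 50 μM A1 with 1 mg/mL ovalbumin, a model antigen from chicken egg white. Treatment lasted 6 h and all groups were kept in medium with serum. The labels also name insulin, with no dose, in the medium of the A1-OVA group and not in that of the A1 group, while the study's methods give no insulin for this experiment, so that ovalbumin and any insulin cannot be told apart. There was no group with ovalbumin alone, so that an effect of ovalbumin without A1 was not measured. The donors were female mice aged 6 to 8 weeks, and the cells were expanded to passage 9 or 10 before storage. The labels do not say whether the 4 samples of a group came from separate cultures or mice, and p-values here measure only the spread between these samples.

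Ribosomes are built in the nucleolus. RNA polymerase I transcribes the ribosomal DNA into a long precursor, box C/D and box H/ACA small nucleolar ribonucleoproteins (snoRNPs) methylate and pseudouridylate it, and large assemblies of processing factors cut it and fold it with ribosomal proteins into the small and the large subunit. The exosome, a complex of exonucleases, trims the products and degrades the spacers. Growth signals are known to raise this machinery, and the transcription factor Myc is a well-known activator of many of its genes.

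Each sample held between 13702348 and 16881995 counts, and every one of the 50 genes had at least 231 counts in every sample. The median coefficient of variation over the 50 genes was 4.75% in control, 3.67% in A1 and 4.18% in A1-OVA MSCs. The cells were checked against markers. Of 8 MSC markers, Cd44, Pdgfra, Pdgfrb and Vcam1 were each above 100 CPM (counts scaled to a library of 1000000) in the mean of every group, whereas Thy1 (CD90) never exceeded 17 counts and Nt5e (CD73) never exceeded 14. Several of these markers differed between groups by edgeR's test. Against control, Cd44 was 2.62-fold higher with A1 and 2.29-fold with A1-OVA. Pdgfra stood at log2 fold changes of -0.99 and -1.16, Vcam1 at -0.95 and -0.89, and Ly6a at -0.59 and -0.50. Pdgfrb did not pass with A1 and stood at -0.14 with A1-OVA, where it passed, and Eng passed with neither. The part of these shifts in the results below was not tested. By flow cytometry of surface markers that included CD44, CD73 and CD90, the study reported no change of the MSC phenotype with A1. Surface protein and RNA are unlike measures, so low RNA here does not show that CD73 or CD90 protein was absent. The summed level of 7 hematopoietic markers was between 1.37 and 2.57 CPM in all samples, with Cd3e at 0 counts throughout. The summed level of 4 endothelial markers stayed between 0.153 and 0.916 CPM.

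Nearly the whole set was higher with A1. By edgeR's quasi-likelihood test (adjusted p under 0.05), 48 of the 50 genes were higher in A1 than in control MSCs, where 31.7% of all tested genes were higher. None was lower (0 genes, also 0 at an unadjusted p under 0.05 and 0 with DESeq2), where 31.1% of all tested genes were lower. With a log2 fold change of at least 0.5 as a further condition, 36 genes were higher and 0 lower, against 9.41% and 11.6% of all tested genes. The median log2 fold change of the 50 genes was 0.63, an increase of 54.5%, and that of all tested genes was -0.00172. In 48 genes all 4 A1 samples lay above all 4 control samples, which was the case for 28% of all tested genes. In 0 genes did they all lie below, against 26.4% of all tested genes. The exceptions on both counts were Polr1c and Nop10. The log2 fold changes ran from 0.06 in Polr1c, which did not pass, to 1.03 in Rrp9, the 1 gene that reached a 2-fold change. Of all tested genes, 97.05% lay at or below a log2 fold change of 1, so that the set did not stand out there. In these bulk samples, more cells of one kind and more RNA per cell cannot be told apart. Over the 50 genes, the log2 fold change showed a Spearman's rho of -0.045 with the control level in CPM and of 0.093 with the length of the longest transcript. This is a description of genes that share the same libraries.

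The 50 genes together took 0.784% to 0.830% of the protein-coding counts in the control samples, with a mean of 0.806% ± 0.020 (SD, n = 4). They took 1.14% to 1.18% in the A1 samples, with a mean of 1.16% ± 0.020 (SD, n = 4), and 1.08% to 1.11% in the A1-OVA samples, with a mean of 1.09% ± 0.014 (SD, n = 4). The 3 groups did not overlap, and control samples were lowest. Ncl and Npm1 alone held 39.8% to 42.1% of the counts of the set in control samples. Without this pair, the other 48 genes still took 0.471% to 0.486% in control, 0.693% to 0.715% in A1 and 0.665% to 0.688% in A1-OVA samples.

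**Figure D1:**
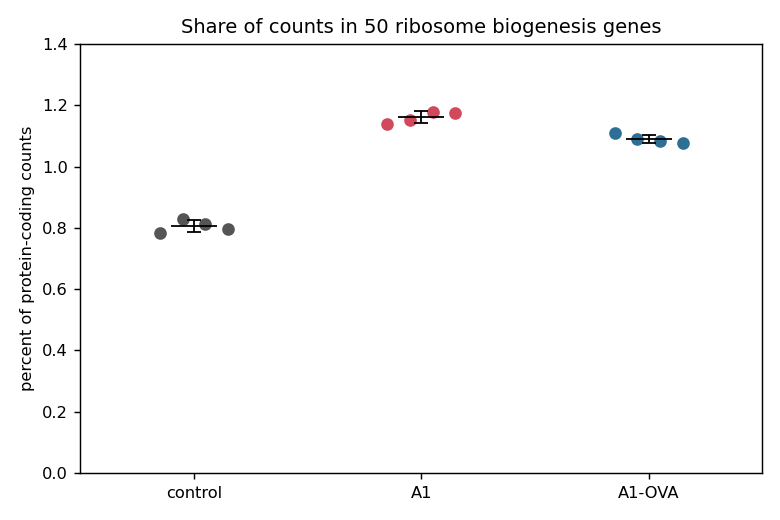
Share of the protein-coding counts (vertical axis, percent) that fell on the 50 ribosome biogenesis genes, with 1 point per sample and bars for the mean and SD of 4 samples. Control samples lie between 0.784% and 0.830%, A1-OVA samples between 1.08% and 1.11%, and A1 samples between 1.14% and 1.18%.

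With A1-OVA the picture was close to that with A1 alone. Again, 48 of 50 genes passed edgeR's test as higher against controls, where 29.7% of all tested genes were higher, and 0 were lower (also 0 at an unadjusted p under 0.05 and 0 with DESeq2), where 27.9% of all tested genes were lower. A log2 fold change of at least 0.5 was reached by 29 genes upwards and 0 downwards, against 8.92% and 8.79% of all tested genes. The median log2 fold change was 0.55, an increase of 46.6%, and the range was 0.07 to 1.02. In 48 genes all A1-OVA samples lay above all control samples, against 25.4% of all tested genes, and in 0 genes all lay below, against 24%. Both treatments were compared with the same 4 control samples, so that the counts are not independent of each other.

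**Figure D2:**
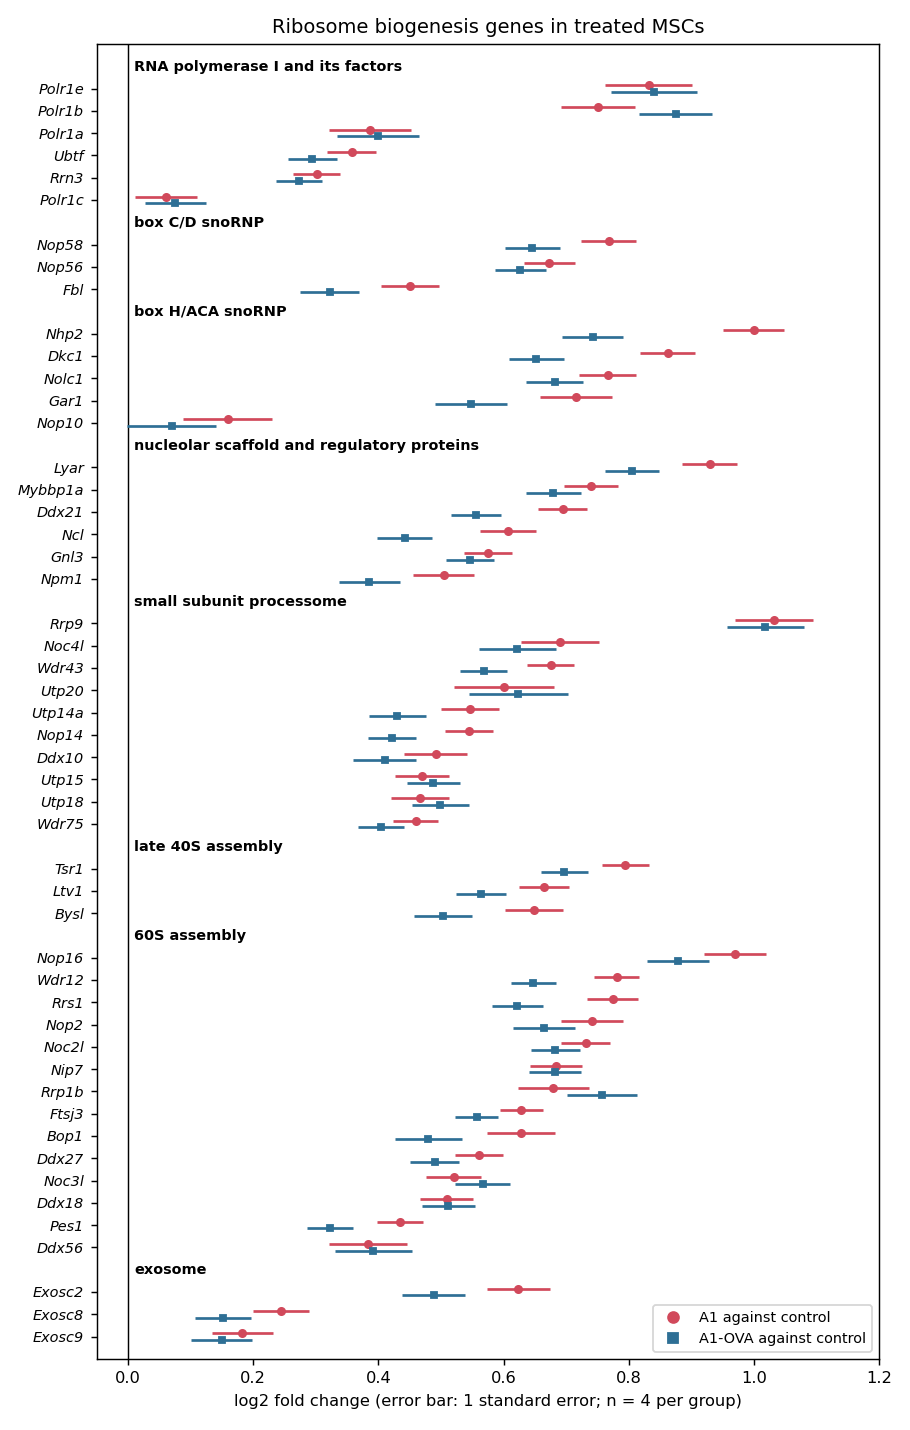
Log2 fold change against control (horizontal axis) of each of the 50 genes, grouped by role, with circles for A1, squares for A1-OVA and bars of 1 standard error (n = 4 samples per group). All points lie right of 0, from 0.06 (Polr1c) to 1.03 (Rrp9) with A1.

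Among the 6 genes of RNA polymerase I and its factors, 5 were higher with A1 and 5 with A1-OVA, and their median log2 fold change with A1 was 0.37. Polr1a encodes the largest, catalytic subunit and Polr1b the second largest. Polr1a (ENSMUSG00000049553, chromosome 6 of GRCm38 from 71909053 to 71984935) stood at 107, 126, 133 and 124 CPM in control samples, at 149, 178, 146 and 169 CPM in A1 samples and at 154, 152, 169 and 173 CPM in A1-OVA samples. Its treated samples all lay above its controls, at a log2 fold change of 0.39 with A1 (standard error 0.07, adjusted p = 2.96e-05 from edgeR) and 0.40 with A1-OVA. Polr1b (ENSMUSG00000027395, chromosome 2 from 129100995 to 129126594) rose from 42.6, 43.1, 48.9 and 46.0 CPM in controls to 76.8, 73.9, 69.2 and 83.7 CPM with A1 and to 78.9, 79.7, 88.3 and 84.0 CPM with A1-OVA. This was a 1.68-fold rise with A1 (adjusted p = 3.98e-10 from edgeR) and a 1.83-fold rise with A1-OVA (adjusted p = 2.74e-11 from edgeR), with groups of treated samples that overlapped each other and not the controls. Polr1e encodes a subunit that is particular to RNA polymerase I and takes part in initiation. It was the lowest of the 50 genes per kilobase of transcript, at 5.03 RPKM in control MSCs, and went from 14.3, 14.2, 15.4 and 16.2 CPM in controls to 27.9, 28.7, 23.5 and 26.8 CPM with A1 and 27, 27.5, 25.9 and 27.1 CPM with A1-OVA. Its treated groups overlapped each other well above the controls, at 1.78-fold with A1 (adjusted p = 1.06e-09 from edgeR) and 1.79-fold with A1-OVA.

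The initiation factors Rrn3 and Ubtf rose with both treatments. Rrn3, which links RNA polymerase I to the promoter, had a log2 fold change of 0.30 with A1 and 0.27 with A1-OVA, and Ubtf, the upstream binding factor of ribosomal DNA, of 0.36 and 0.29, all of them past the test. Polr1c, a subunit that RNA polymerase I shares with RNA polymerase III, was at 57.1, 52.1, 53.6 and 50.9 CPM in control samples, 59.8, 53.6, 54.1 and 55.4 CPM in A1 samples and 54.5, 56.2, 56.0 and 58.5 CPM in A1-OVA samples. Its groups overlapped, and its log2 fold changes of 0.06 with A1 (standard error 0.05, adjusted p = 0.293 from edgeR) and 0.08 with A1-OVA (adjusted p = 0.193 from edgeR) did not pass. Under scaling to library totals alone the value with A1 was -0.02.

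The box C/D snoRNP methylates ribosomal RNA with fibrillarin (Fbl) as the methyltransferase and with Nop56 and Nop58 as core scaffold proteins. All 3 genes rose under both treatments. Nop58 (ENSMUSG00000026020, chromosome 1 from 59684971 to 59719044) stood at 255, 284, 259 and 262 CPM in controls, 431, 441, 479 and 452 CPM with A1 and 441, 412, 400 and 405 CPM with A1-OVA, with no treated sample near the controls. Its log2 fold change was 0.77 with A1 (standard error 0.04, adjusted p = 1.84e-12 from edgeR) and 0.65 with A1-OVA. Nop56 (ENSMUSG00000027405, chromosome 2 from 130274430 to 130279313) stood at 152, 163, 163 and 163 CPM in controls, 244, 252, 265 and 260 CPM with A1 and 238, 244, 262 and 245 CPM with A1-OVA. Its treated samples all lay well above the controls, at log2 fold changes of 0.67 and 0.63. Fbl (ENSMUSG00000046865, chromosome 7 from 28169710 to 28179269) rose less, from 59.8, 58.4, 61.4 and 61.1 CPM to 80.9, 76.9, 84.3 and 86.8 CPM with A1 and 75.4, 70.3, 77.6 and 77.7 CPM with A1-OVA. The fold was 1.37 with A1 (adjusted p = 3.08e-08 from edgeR) and 1.25 with A1-OVA (adjusted p = 4.33e-06 from edgeR).

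The box H/ACA snoRNP converts uridines of ribosomal RNA to pseudouridine, and its core is made of Dkc1 (dyskerin, the pseudouridine synthase), Nhp2, Nop10 and Gar1, with Nolc1 as a nucleolar chaperone of snoRNPs. Of these 5 genes, 4 rose, with a median log2 fold change of 0.77 with A1, the highest among the role groups. Nhp2 (ENSMUSG00000001056, chromosome 11 from 51619735 to 51623714) went from 55.2, 52.3, 53.2 and 48.0 CPM in controls to 102, 108, 108 and 98.9 CPM with A1 and 92.8, 87.6, 85.1 and 83.8 CPM with A1-OVA. The 3 groups were fully apart, at a log2 fold change of 1.00 with A1 (standard error 0.05, adjusted p = 1.3e-13 from edgeR) and 0.74 with A1-OVA (adjusted p = 2.25e-11 from edgeR). Dkc1 (ENSMUSG00000031403, chromosome X from 75095854 to 75109777) stood at 122, 129, 128 and 123 CPM in controls, 221, 223, 241 and 227 CPM with A1 and 215, 192, 193 and 188 CPM with A1-OVA, and its groups were likewise apart. Its log2 fold change was 0.86 with A1 and 0.65 with A1-OVA. Nolc1 and Gar1 rose with A1 by 0.77 and 0.71 on the log2 scale. Nop10, the smallest core protein, was the exception at 56.3, 42.3, 47.4 and 43.8 CPM in controls, 55.2, 57.2, 51.5 and 48.1 CPM with A1 and 49.9, 49.9, 48.5 and 51.0 CPM with A1-OVA. Control replicate 1 lay among its A1 samples. Its log2 fold change with A1 was 0.16 (standard error 0.07, adjusted p = 0.0585 from edgeR), and without control replicate 1 it was 0.25 and passed the test, as it did without A1 replicate 4 at 0.20.

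**Figure D3:**
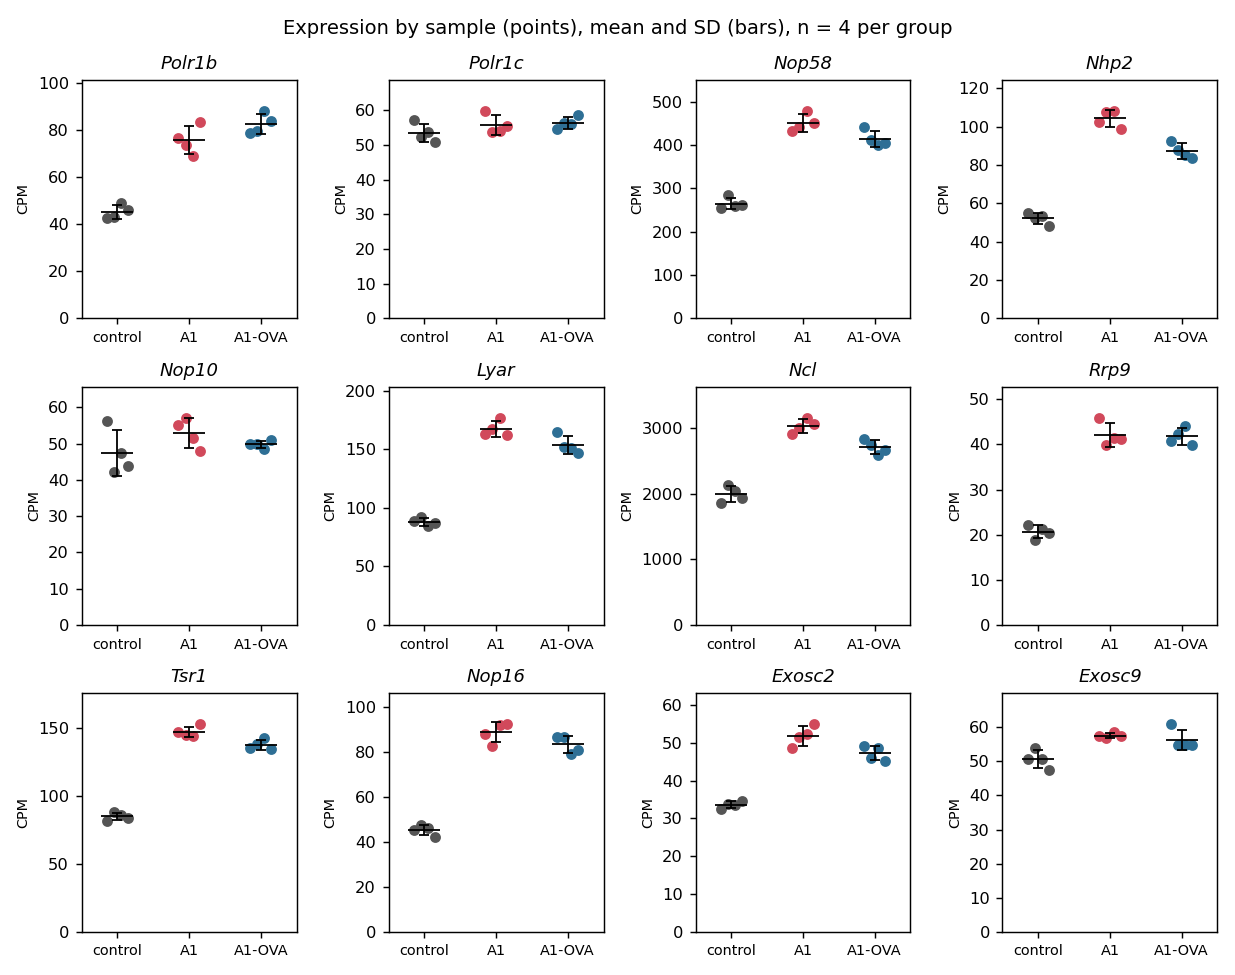
Expression in CPM (vertical axes, from 0) of 12 of the genes in the 4 samples of each group, with bars for the mean and SD. In Polr1c and Nop10 the groups overlap, and in the other 10 genes every treated sample lies above every control sample.

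All 6 genes of nucleolar scaffold and regulatory proteins rose, each by at least 0.5 on the log2 scale with A1. Ncl (nucleolin) and Npm1 (nucleophosmin) are abundant RNA-binding proteins and chaperones of the nucleolus, and were the most abundant of the 50 genes per kilobase of transcript in control MSCs, with Npm1 at 715 RPKM and Ncl at 243 RPKM against a median of 32.0 RPKM. These values use the longest transcript, 8202 bases for Ncl and 1633 for Npm1, and would change with another transcript. By CPM, Ncl was the higher of the pair. Ncl (ENSMUSG00000026234, chromosome 1 from 86344719 to 86359400) stood at 1862, 2137, 2037 and 1935 CPM in controls, 2908, 3005, 3160 and 3069 CPM with A1 and 2836, 2745, 2589 and 2660 CPM with A1-OVA. All groups were separate, and the fold was 1.52 with A1 (adjusted p = 1.07e-10 from edgeR) and 1.36 with A1-OVA (adjusted p = 2.03e-08 from edgeR). Npm1 (ENSMUSG00000057113, chromosome 11 from 33152287 to 33163206) stood at 1141, 1265, 1145 and 1118 CPM in controls, 1594, 1646, 1726 and 1658 CPM with A1 and 1665, 1546, 1401 and 1489 CPM with A1-OVA, a log2 fold change of 0.50 with A1 and 0.39 with A1-OVA. The treated groups of Npm1 overlapped each other.

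Lyar, a nucleolar zinc finger protein that promotes precursor processing, rose the most in this group, from 88.7, 91.9, 84.3 and 87.1 CPM to 163, 168, 177 and 163 CPM with A1 and 165, 152, 152 and 147 CPM with A1-OVA. This was a 1.90-fold rise with A1 (adjusted p = 6.66e-14 from edgeR) and 1.75-fold with A1-OVA. Mybbp1a, a nucleolar protein that binds Myb and p53, stood at 244, 237, 258 and 264 CPM in controls, 415, 435, 395 and 428 CPM with A1 and 388, 385, 424 and 407 CPM with A1-OVA, with log2 fold changes of 0.74 and 0.68. The RNA helicase Ddx21 and the GTP-binding protein Gnl3 (nucleostemin) had log2 fold changes with A1 of 0.69 and 0.57.

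The small subunit processome assembles on the nascent precursor and guides its early cleavages. All 10 of its genes rose with A1 and with A1-OVA, 6 of them by at least 0.5 on the log2 scale with A1. Rrp9, a protein of the snoRNP that base-pairs with the precursor in this assembly, showed the largest change of all 50 genes with A1. Rrp9 (ENSMUSG00000041506, chromosome 9 from 106475963 to 106485424) went from 22.1, 18.7, 21.3 and 20.4 CPM in controls to 45.9, 39.9, 41.4 and 41.2 CPM with A1 and 40.8, 42.2, 44.2 and 39.8 CPM with A1-OVA. The treated groups overlapped each other and lay well above the controls, at 2.04-fold with A1 (adjusted p = 4.79e-12 from edgeR) and 2.03-fold with A1-OVA (adjusted p = 5.82e-12 from edgeR). Noc4l, a partner of Nop14, rose from 26.3, 23.1, 23.6 and 26 CPM to 38.5, 37.5, 39.7 and 43.9 CPM with A1 and 37.8, 36.2, 37.9 and 40.2 CPM with A1-OVA, a log2 fold change of 0.69 and 0.62. The WD-repeat proteins Wdr43 and Wdr75 had log2 fold changes with A1 of 0.68 and 0.46. Those of the processome proteins Utp20, Utp14a, Utp15 and Utp18 were 0.60, 0.55, 0.47 and 0.47, and those of Nop14 and the helicase Ddx10 were 0.54 and 0.49. Utp20 was the noisiest of the set in A1 samples, with 192, 222, 176 and 236 CPM against 118, 135, 151 and 141 CPM in controls and 199, 191, 223 and 225 CPM with A1-OVA.

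The late factors of small subunit assembly, Tsr1, Ltv1 and Bysl, all rose. Tsr1, a GTPase-like factor, stood at 81.8, 88.1, 85.8 and 84.0 CPM in controls, 147, 145, 144 and 153 CPM with A1 and 135, 138, 143 and 135 CPM with A1-OVA. Its log2 fold change was 0.79 with A1 (standard error 0.04, adjusted p = 8.37e-14 from edgeR) and 0.70 with A1-OVA. On the opposite strand, exons of Srr cover 32.3% of the exonic length of Tsr1; the counting used strand, per the study's methods. Ltv1 rose from 99.9, 109, 105 and 96.8 CPM to 161, 162, 164 and 164 CPM with A1 and 155, 157, 145 and 151 CPM with A1-OVA, a log2 fold change of 0.66 and 0.56. Bysl (bystin) had a log2 fold change of 0.65 and 0.50.

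The large subunit group was the most numerous, and all 14 of its genes rose under both treatments, and the median of their log2 fold changes was 0.65 with A1 and 0.59 with A1-OVA. Nop16 rose most, from 45.5, 47.3, 46.1 and 42.4 CPM to 88.0, 82.7, 92.1 and 92.3 CPM with A1 and 86.7, 86.8, 79.2 and 80.9 CPM with A1-OVA. The fold was 1.96 with A1 (adjusted p = 3.18e-13 from edgeR) and 1.84 with A1-OVA (adjusted p = 1.75e-12 from edgeR). Wdr12, Bop1 and Pes1 form 1 complex that is needed for the maturation of the large subunit RNA, and they changed by unequal amounts. Wdr12 stood at 78.8, 78.0, 77.3 and 75.5 CPM in controls, 131, 133, 133 and 135 CPM with A1 and 125, 122, 118 and 120 CPM with A1-OVA, a log2 fold change of 0.78 and 0.65. The log2 fold change of Bop1 was 0.63 and 0.48, and that of Pes1 was 0.43 and 0.32.

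Rrs1, a factor that brings the ribonucleoprotein of the small ribosomal RNA of this subunit into the precursor, had a log2 fold change with A1 of 0.77. The RNA methyltransferases Nop2 and Ftsj3 had values of 0.74 and 0.63, the paired factors Noc2l and Noc3l of 0.73 and 0.52, Nip7 of 0.68 and Rrp1b of 0.68. The helicases Ddx27, Ddx18 and Ddx56 had values of 0.56, 0.51 and 0.38. Rrp1b, Noc3l, Ddx18 and Ddx56 were among the 11 genes of the set whose point estimate was higher with A1-OVA than with A1.

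The 3 exosome genes, all of the noncatalytic core, rose with smaller changes in Exosc8 and Exosc9. Exosc2 went from 32.4, 33.9, 33.6 and 34.5 CPM to 48.6, 51.5, 52.3 and 54.8 CPM with A1 and 49.0, 46.0, 48.5 and 45.2 CPM with A1-OVA, a log2 fold change of 0.62 and 0.49. Exosc8 went from 56.1, 52.4, 51.5 and 54.0 CPM to 60.7, 66.0, 64.0 and 62.9 CPM with A1 and 59.6, 61.4, 60 and 56.9 CPM with A1-OVA. Its log2 fold change was 0.24 with A1 (adjusted p = 7.84e-05 from edgeR) and 0.15 with A1-OVA (adjusted p = 0.00627 from edgeR), and its treated samples lay above the controls by a narrow margin. Exosc9 had log2 fold changes of 0.18 and 0.15. Under scaling to library totals alone, Exosc9 did not pass the test with either treatment and Exosc8 did not with A1-OVA. The rise of Exosc9 with A1-OVA also did not pass without control replicate 4 (0.12) or without A1-OVA replicate 1 (0.11).

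Few of these genes differed between A1-OVA and A1 MSCs, and by small amounts. In A1-OVA against A1 MSCs, 9 of the 50 genes were lower by edgeR's test (adjusted p under 0.05), where 6.81% of all tested genes were lower. None was higher (0 genes with edgeR and 0 with DESeq2, and 1 gene, Polr1b, at an unadjusted p under 0.05), where 6.05% of all tested genes were higher. The 9 genes were Nhp2, Dkc1, Ncl, Rrs1, Bysl, Ddx21, Wdr12, Nop14 and Pes1, with log2 fold changes between -0.26 and -0.11. Nhp2 was lower by 16.3% (log2 fold change -0.26, adjusted p = 0.000951 from edgeR) and Dkc1 by 13.5% (log2 fold change -0.21, adjusted p = 0.00254 from edgeR). Both belong to the box H/ACA core, in which Gar1 stood at -0.17 (adjusted p = 0.0511 from edgeR) and Nop10 at -0.09 (adjusted p = 0.449 from edgeR) without passing. The median log2 fold change of the 50 genes was -0.08, with 39 point estimates below 0, and that of all tested genes was 0.00571. In 16 genes all A1-OVA samples lay below all A1 samples, against 9.58% of all tested genes, and in 0 genes they all lay above, against 8.56%. Among the 6 genes of RNA polymerase I and its factors, 0 passed with edgeR in either direction, with 1 at an unadjusted p under 0.05.

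The count of 9 rested on few samples. Leaving out A1-OVA replicate 4 left 3 genes, leaving out A1 replicate 3 left 4, leaving out A1 replicate 4 left 5, leaving out A1-OVA replicate 2 or 3 left 6 each, and leaving out control replicate 2 gave 14. Nhp2, Dkc1 and Wdr12 passed in all 21 alternative fits. Rrs1 passed in 20 of them, Ncl and Ddx21 in 18 each, Nop14 in 13, Bysl in 12 and Pes1 in 8. A1 samples also had lower totals (13702348 to 14347870 counts) than A1-OVA samples (14359973 to 16674294 counts), and the part of this difference in the result was not tested.

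**Figure D4:**
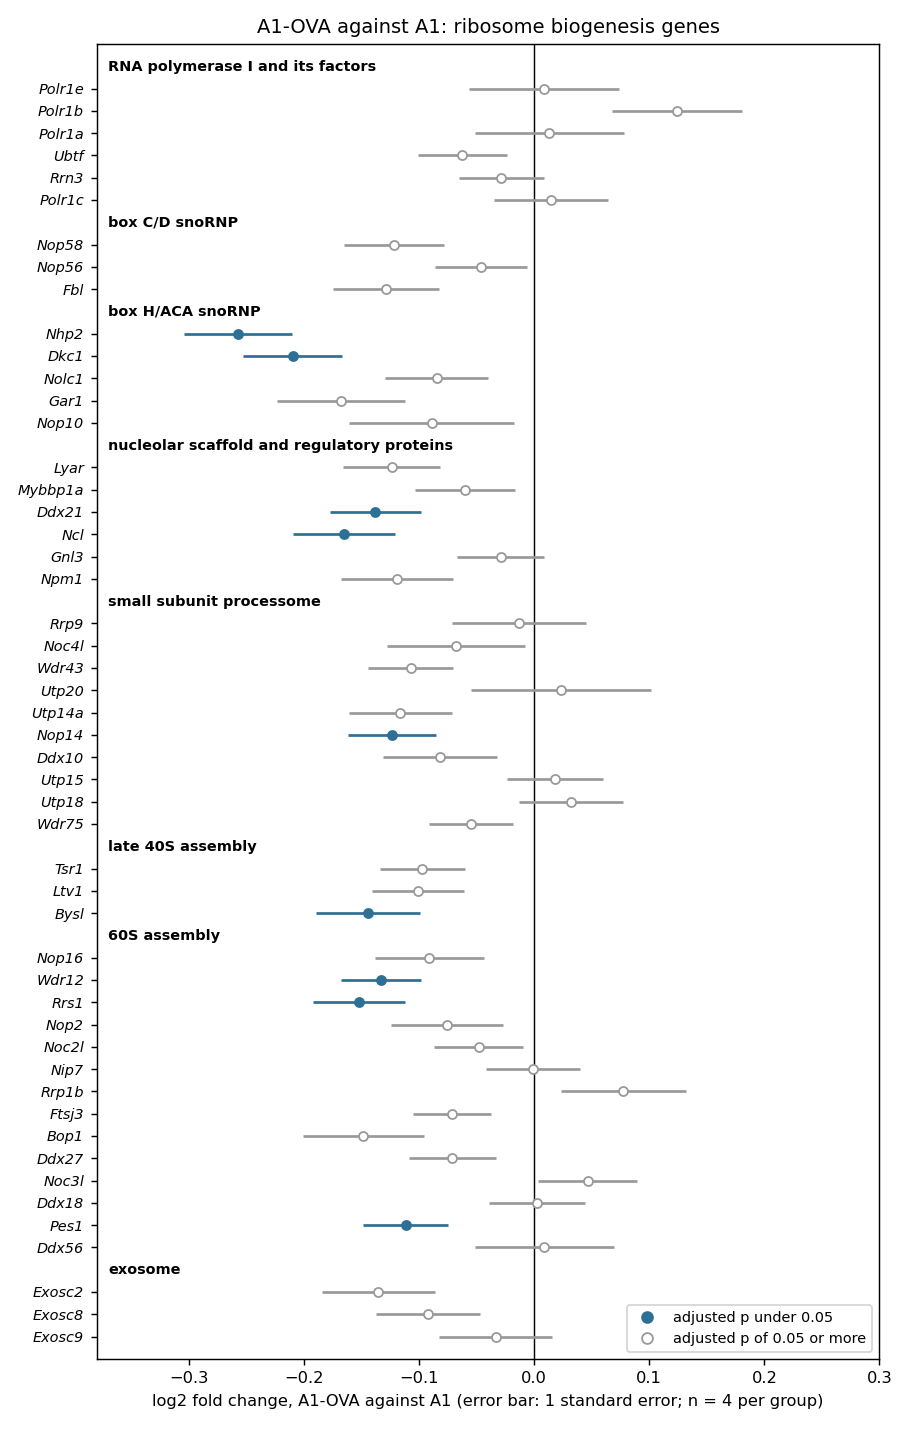
Log2 fold change of A1-OVA against A1 (horizontal axis) for each of the 50 genes, grouped by role, with bars of 1 standard error (n = 4 samples per group). Filled points mark the 9 genes that passed edgeR's test, all left of 0, from -0.26 (Nhp2) to -0.11 (Pes1).

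Another 107 genes with known roles in the same pathway were listed from pathway knowledge, and 106 of them were tested. Earlier results of these data were known when the list was made. With A1, 95 passed edgeR's test as higher and 3 as lower, and the median log2 fold change was 0.43. With A1-OVA, the counts were 88 and 3 and the median was 0.39. The higher genes were 89.6% and 83.0% of the list, against 31.7% and 29.7% of all tested genes. A log2 fold change of at least 0.5 was reached by 42 of them with A1, 39.6% of the list against 9.41% of all tested genes. The largest rises with A1 were those of Rrp12, a factor of late small subunit maturation and export, at 1.05 (adjusted p = 3.28e-12 from edgeR), the processome protein Pwp2 at 0.82 and the large subunit factor Ebna1bp2 at 0.79. The 3 lower genes were Pih1d1, a subunit of a chaperone complex for snoRNP assembly, at -0.18 (adjusted p = 0.0493 from edgeR), the exosome cofactor C1d at -0.16 and the helicase Ddx52 at -0.13. The call of Pih1d1 was lost in 11 of the alternative fits and that of Ddx52 in 3. By role, 37 of 40 further large subunit genes, 32 of 34 processome genes, 9 of 10 exosome genes and 7 of 10 genes of RNA polymerase I and its factors were higher with A1. In A1-OVA against A1, 1 of the 106 genes was higher (0.943%, against 6.05% of all tested genes) and 6 were lower (5.66%, against 6.81%).

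Ribosomal protein genes, whose products the machinery assembles, moved less. Of 83 tested genes with symbols of cytosolic ribosomal proteins, 71 were higher with A1 and 0 lower (0 also at an unadjusted p under 0.05 and with DESeq2), but the median log2 fold change was 0.16, an increase of 12%, and 2 genes reached 0.5. With A1-OVA, 52 were higher and the median was 0.13. The higher genes were 85.5% and 62.7% of the list, against 31.7% and 29.7% of all tested genes. The 2 genes that reached 0.5 with A1 were 2.41% of the list, below the 9.41% of all tested genes. The list was picked by the start of the symbol alone, so it can hold genes whose products are not ribosomal proteins. Whether the 2 genes are of that kind was not checked. The groups were fully apart in fewer of them, with all treated samples above all controls in 32 genes with A1 and 15 with A1-OVA, where 28% and 25.4% of all tested genes were so placed. Reads of ribosomal protein genes can be shared with their many processed pseudogenes, which makes these values uncertain. No pseudogene carries the name of one of the 50 ribosome biogenesis genes in the annotation, which leaves unnamed copies uncounted.

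**Figure D5:**
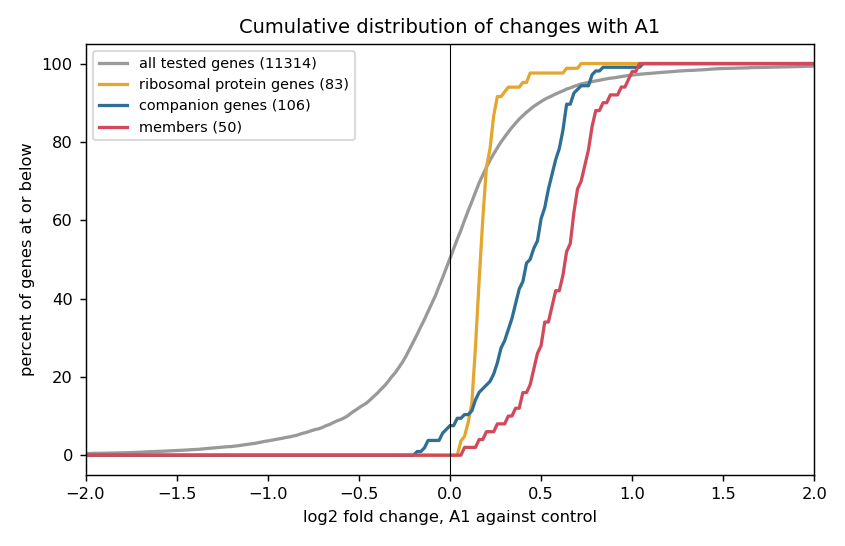
Percent of genes (vertical axis) at or below each log2 fold change of A1 against control (horizontal axis) for the 50 genes described here (members), the 106 further pathway genes (companion genes), 83 ribosomal protein genes and all 11314 tested genes, whose extremes lie outside the axis. The curves cross the middle at medians of 0.63, 0.43, 0.16 and -0.00172.

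Myc, which binds the E-box CACGTG, was itself higher. It stood at 66.6, 62.8, 67.6 and 70.4 CPM in controls, 132, 135, 138 and 142 CPM with A1 and 127, 127, 137 and 127 CPM with A1-OVA, a log2 fold change of 1.03 with A1 (standard error 0.04, adjusted p = 8.55e-15 from edgeR) and 0.95 with A1-OVA. Mycl was low, at 2.85, 2.60, 1.98 and 2.32 CPM in controls, 4.12, 4.43, 4.66 and 4.43 CPM with A1 and 6.67, 6.84, 7.59 and 5.85 CPM with A1-OVA, and its 3 groups were apart. The Myc partner Max stood at 62.1, 62.9, 54.1 and 59.3 CPM in controls, 65.4, 63.4, 61.6 and 61.7 CPM with A1 and 66.2, 59.1, 59 and 58.5 CPM with A1-OVA. The antagonist Mnt stood at 22.2, 21, 24.1 and 22.8 CPM in controls, 23.6, 24.5, 23.7 and 22.7 CPM with A1 and 20.7, 22.9, 22.9 and 23.8 CPM with A1-OVA. Their groups overlapped, and with A1 neither passed edgeR's test (log2 fold changes of 0.08 and 0.07, adjusted p = 0.196 and 0.359), and Mycn had 0 counts. Whether Myc had a part in the changes described here was not tested.

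Since 48 of the 50 genes were higher with both treatments, the promoters of the set were searched for shared letters, from 250 bases before to 50 after the start in RefSeq on GRCm38.p6, a start that can differ from the gene bounds given above. The table held promoters of 45 of the 50 genes. The E-box CACGTG, which reads the same on both strands, was present in 9 of the 45 genes (20%), in 11.9% of 8954 tested genes and in 8.09% of all 27025 genes of the table. The log2 fold changes with A1 of the 9 genes ran from 0.30 to 0.79 with a median of 0.66, and those of the 36 genes without the letters ran from 0.06 to 1.03 with a median of 0.64, so that the ranges overlapped. The 7 letters CCGGAAG, searched on both strands and chosen after the promoters were seen, are the core bound by ETS family factors. They were present in 15 of the 45 genes (33.3%), 21.5% of tested genes and 9.93% of all genes of the table.

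Sites are shown for the 3 E-box genes with the largest changes and for Rrn3, the gene with the smallest change and the only one with a pair of sites. Capitals mark the E-box, and all are printed 5′ to 3′ on the strand of the gene. The site of Tsr1 lies at chr11:74898094-74898119 (+), that of Nop2 at chr6:125131813-125131838 (+), that of Mybbp1a at chr11:72441357-72441376 (+), and those of Rrn3 at chr16:13780474-13780499 (+) and chr16:13780641-13780666 (+). The first base of the E-box is base 25 after the start in Tsr1 and 41 in Mybbp1a, and lies 60 bases before the start in Nop2.
Tsr1: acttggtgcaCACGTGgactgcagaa
Nop2: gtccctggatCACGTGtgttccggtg
Mybbp1a: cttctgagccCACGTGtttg
Rrn3, distal: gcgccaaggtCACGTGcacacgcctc
Rrn3, proximal: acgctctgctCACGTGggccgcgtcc

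The 250 bases before the start are shown for the 2 genes with the largest and the 2 with the smallest change with A1, to let the ends of the range be compared. They are Rrp9 (chr9:106477059-106477308, + strand) and Nhp2 (chr11:51619523-51619772, + strand), with log2 fold changes of 1.03 and 1.00, and Polr1c (chr17:46248046-46248295, - strand) and Nop10 (chr2:112261676-112261925, + strand), with 0.06 and 0.16. The stretch of Rrp9 lies inside its gene bounds given above, since the RefSeq start used here lies after the start of those bounds. None of the 4 genes holds CACGTG in the stretch shown. Capitals mark CCGGAAG, which Nhp2 and Polr1c hold once each, so that it occurs at both ends of the range.
Rrp9: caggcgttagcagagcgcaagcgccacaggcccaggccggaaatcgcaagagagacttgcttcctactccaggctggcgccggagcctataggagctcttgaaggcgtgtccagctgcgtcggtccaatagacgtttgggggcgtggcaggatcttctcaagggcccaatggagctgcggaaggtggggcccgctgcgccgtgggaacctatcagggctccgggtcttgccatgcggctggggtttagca
Nhp2: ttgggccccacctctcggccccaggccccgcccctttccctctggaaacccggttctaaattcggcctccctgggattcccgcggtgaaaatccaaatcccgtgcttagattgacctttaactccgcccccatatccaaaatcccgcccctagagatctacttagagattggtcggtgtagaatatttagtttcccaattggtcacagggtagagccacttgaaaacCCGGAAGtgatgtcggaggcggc
Polr1c: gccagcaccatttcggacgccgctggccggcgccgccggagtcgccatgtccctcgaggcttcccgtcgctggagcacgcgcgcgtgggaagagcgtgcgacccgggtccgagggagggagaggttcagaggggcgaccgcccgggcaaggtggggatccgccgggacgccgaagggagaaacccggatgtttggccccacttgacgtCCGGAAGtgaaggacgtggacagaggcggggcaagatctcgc
Nop10: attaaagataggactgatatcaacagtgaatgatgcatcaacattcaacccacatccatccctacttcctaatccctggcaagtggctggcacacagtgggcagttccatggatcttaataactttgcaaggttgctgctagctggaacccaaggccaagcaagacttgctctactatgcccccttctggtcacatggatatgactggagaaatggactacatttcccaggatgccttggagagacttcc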

How the data were processed

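RNA of 12 samples (4 per group) was sequenced after poly(A) selection with a stranded kit. The authors demultiplexed reads with bcl2fastq 2.20, aligned them to GRCm38 with STAR 2.7 and counted them per gene and strand with featureCounts 2.0, per the labels and the study's methods. The deposited values are raw counts per Ensembl gene, not normalized. Symbols, biotypes and gene bounds were taken from GENCODE M21, which holds 99.5% of the identifiers, and CPM are counts over TMM-scaled protein-coding totals. RPKM divide CPM by the length of the longest protein-coding transcript.

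Protein-coding genes that passed edgeR's default expression filter (11314 genes) were fitted over all 12 samples with edgeR 4.0.16 (TMM, glmQLFit and glmQLFTest, R 4.3.3), with group as the only term and Benjamini-Hochberg adjustment over all tested genes in each of 3 comparisons. The procedure was run on simulated data in which far fewer genes changed than were called here. That run therefore does not test the scaling or the calls where most genes move. The 50 genes and the other lists were chosen with earlier results of these data known. Values in every sample were given for the 2 genes of each role group with the largest change with A1, for Fbl, Ncl, Npm1, Polr1a and Polr1b, for the Myc family, and for Polr1c, Nop10 and Utp20, which were added after their values were seen. Of the further pathway genes, the 3 highest and 3 lowest called were named. Sequences come from RefSeq on GRCm38.p6. Alternatives were other scalings, DESeq2 1.42.0, other filters and gene sets, fits of only the groups compared, a replicate block, and leaving out each sample in turn.

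Total counts per sample ran from 13702348 to 16881995. Replicates of a group differed by more than counting noise in every pair, with a variance 1.91 to 6.80 times that of counting alone, and none was taken for a repeat of another.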

Additional observations from a re-analysis of the deposited data

Results flagged for a closer look

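In 5 of 150 groups of 4 samples (3.33%, where chance gives about 1 in 20), 1 sample of a gene lay far from the other 3. Bop1 was at 70.7 CPM in A1-OVA replicate 4, with the others between 76.6 and 77.5 CPM. Ddx56 was at 38.6 CPM in A1 replicate 2, with the others between 43.2 and 43.8 CPM. Nip7 was at 77.9 CPM in A1-OVA replicate 2, with the others between 83.2 and 83.7 CPM. Nop56 was at 152 CPM in control replicate 1, with the others at 163 CPM each. Exosc9 was at 60.8 CPM in A1-OVA replicate 1, with the others between 54.7 and 54.9 CPM, and without this sample its rise with A1-OVA, then 0.11 on the log2 scale, no longer passed edgeR's test. The 5 values fell in 5 different samples.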

How the results depend on the processing

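Across the alternatives that kept all samples, 47 to 49 of the 50 genes were higher with A1 and 46 to 48 with A1-OVA, and leaving out each sample in turn gave 48 to 49 and 47 to 49. A threshold of 1 in place of 0.5 on the log2 scale left 1 gene with A1 (from 36) and 1 with A1-OVA (from 29). With A1, 97.05% of all tested genes lay at or below 1, called or not, so that the set did not stand out at this threshold. The same share with A1-OVA is not given here. In A1-OVA against A1, leaving out each sample in turn gave 3 to 14 lower genes, and the other alternatives gave 6 to 11. As shares of all counts, the 50 genes took 1.14% with A1 and 1.07% with A1-OVA. With the letters CACGNG in place of CACGTG, 75.6% of the 45 genes held a match in at least 1 promoter, against 46.3% of tested genes and 30.3% of all genes of the table. Under scaling to library totals alone, 29 genes with A1 and 22 with A1-OVA passed with a log2 fold change of at least 0.5. The median of the 50 genes was then 0.55 with A1 and 0.49 with A1-OVA, so that the size of the rise depended on the scaling. The median of all tested genes was -0.08 with A1 and -0.06 with A1-OVA under this scaling. The log2 fold changes with A1 of Polr1c, Max and Mnt turned to -0.020, -0.00065 and -0.013. Replicate numbers showed no sign of pairing, with deviations of same-numbered samples correlating at 0.021 on average (-0.132 to 0.156 over 12 pairs). With 4 samples per group, this cannot exclude that samples were paired. With the replicate number as a block, 49 genes were higher with A1, Nop10 among them, 48 with A1-OVA, and 10 were lower in A1-OVA against A1. The cause of these shifts was not tested. Depth did not limit any of the 50 genes to few counts, and 4 samples per group limit the precision of small changes.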
